A study of Mus musculus with 42 samples.

Results

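Killer lectin-like receptors are C-type lectin proteins on the surface of natural killer (NK) cells. Described here are 9 of their genes, Klrc1, Klrc2, Klrd1, Klrk1, Klrb1b, Klrb1c, Klrb1f, Klre1 and Klri2, taken by name from the 54353 genes of the count tables, in all 34 bulk RNA-seq libraries and in 1 joined single-cell matrix. All cells came from the uterus of C57BL/6 wild-type mice. The study asked how tissue-resident NK cells (trNK) of the uterus differentiate when the decidua, the lining that holds the embryo, forms in early pregnancy.

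The bulk libraries made up 17 groups of 2 libraries in 4 experiments. In the gestation experiment, untreated trNK (CD45+NK1.1+NKp46+CD49a+CXCR6-) were sorted from virgin mice and at gestational days (gd) 6.5 and 8.5. In the subset experiment, gd8.5 trNK were split by the surface proteins CD55 and 4-1BB into CB_low (low for both), CB_int (intermediate) and CB_hi (high), which the study calls trNK-V, trNK-D and trNK-T. In the inhibitor culture, cells were kept for 3 days without further treatment, with 20 ng/mL IL-21, a cytokine that signals largely through the factor STAT3, or with 20 ng/mL IL-21 and 1 µM of the STAT3 inhibitor Stattic, and live NK1.1+ cells were then sorted. The study's methods put IL-15 into the medium of these cultures and write the Stattic dose in millimolar where the label has micromolar, and the study describes the cells as the trNK-V subgroup of gd6.5, which the labels do not state. In the time course, gd6.5 trNK were kept in IL-15 with or without 20 ng/mL IL-21 for 0, 6, 24 or 72 h. The study describes these cells, too, as the trNK-V subgroup, where the labels have trNK. IL-15 is given as 10 ng/mL in one label and 15 ng/mL in another, and the labels give IL-21 to 1 of the 2 groups at 0 h. No library is labelled as a separate animal, donor or culture, so the p-values below measure the spread between these libraries, which may be technical. Every bulk and single cell was selected for NK1.1, the product of Klrb1c, so the Klrb1c values below come from cells chosen for its protein. In bulk libraries, fewer cells that express a gene and less RNA per cell cannot be told apart.

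CD94, the product of Klrd1, pairs with an NKG2 chain to form a receptor for Qa-1, a non-classical MHC class I molecule. With NKG2A, from Klrc1, the pair inhibits the cell, and with NKG2C, from Klrc2, it activates it. NKG2D, from Klrk1, is a separate activating receptor that pairs with itself, signals through the adaptor DAP10 and sees stress-induced ligands. KLRE1, from Klre1, forms an activating heterodimer with KLRI2, from Klri2, and an inhibitory one with KLRI1. The NKR-P1 receptors bind C-type lectin-related (Clr) molecules encoded beside them. Klrb1c and Klrb1f encode activating forms and Klrb1b an inhibitory form that sees Clr-b. In the uterus, such receptors are known for balancing NK cell activation against tolerance of the fetal tissue.

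The 9 genes lay within 962 kb of chromosome 6 (GRCm38, gene coordinates from the Ensembl annotation), the NK gene complex. In order along the chromosome they were Klrb1c (chr6:128778485-128789215, minus strand), Klrb1b (chr6:128813706-128826331, minus), Klrb1f (chr6:129045901-129057464, plus), Klre1 (chr6:129577905-129585827, plus), Klrd1 (chr6:129591782-129598775, plus), Klrk1 (chr6:129610323-129623864, minus), Klrc2 (chr6:129647496-129660689, minus), Klrc1 (chr6:129666015-129678973, minus) and Klri2 (chr6:129729041-129740484, minus). Sequence shared between neighbours limits how reads can be assigned. Of all stretches of 150 bases in the transcripts of Klrc1, 4.32% also stood in Klrc2, and 2.48% of those of Klrc2 stood in another gene. The predicted gene Gm44511, whose exons overlap those of both genes, held 19.4% of the stretches of Klrb1b and 8.73% of those of Klrb1c. The values of these 4 genes are less certain for that reason, while the other 5 shared no such stretch with any gene.

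Promoter windows (250 bases before to 50 bases after a transcription start, RefSeq, GRCm38.p6) were at hand for 7 of the 9 genes, in 10 windows. The 5 windows shown belong to genes named in the contrasts that follow, and no link from window to level was tested. Across subsets Klrb1c and Klrb1f fell and Klrb1b did not. With IL-21 at 72 h, mean Klrb1f was higher and mean Klrb1b and Klrb1c were lower. Klrc2 and Klrk1 were among the genes that fell between subsets. Capitals mark each match, on either strand, to the STAT (TTCNNNGAA), T-box (GGTGTGA), RUNX (TGTGGTT), AP-1 (TGANTCA) or ETS (CAGGAAGT) letters searched.
Klrb1c, chr6:128788592-128788891, minus strand: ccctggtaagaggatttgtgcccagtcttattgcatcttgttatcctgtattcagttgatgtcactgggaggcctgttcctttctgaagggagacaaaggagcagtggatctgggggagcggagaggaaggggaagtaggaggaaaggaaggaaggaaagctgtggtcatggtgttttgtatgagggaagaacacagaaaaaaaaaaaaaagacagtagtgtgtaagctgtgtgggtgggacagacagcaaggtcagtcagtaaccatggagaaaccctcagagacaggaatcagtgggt
Klrb1b, chr6:128826266-128826565, minus strand: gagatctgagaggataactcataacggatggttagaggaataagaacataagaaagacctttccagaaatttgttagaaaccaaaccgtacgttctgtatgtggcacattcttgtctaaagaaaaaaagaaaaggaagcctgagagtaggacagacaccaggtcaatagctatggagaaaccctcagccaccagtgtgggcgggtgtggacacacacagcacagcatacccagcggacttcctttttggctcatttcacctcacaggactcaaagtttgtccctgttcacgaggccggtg
Klrb1f, chr6:129045651-129045950, plus strand: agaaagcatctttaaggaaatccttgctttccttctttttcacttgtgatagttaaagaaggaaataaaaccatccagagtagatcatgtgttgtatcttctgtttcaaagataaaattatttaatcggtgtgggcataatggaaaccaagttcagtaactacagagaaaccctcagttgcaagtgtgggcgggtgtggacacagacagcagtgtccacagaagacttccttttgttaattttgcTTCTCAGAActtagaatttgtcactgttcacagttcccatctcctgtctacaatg
Klrc2, chr6:129660507-129660806, minus strand: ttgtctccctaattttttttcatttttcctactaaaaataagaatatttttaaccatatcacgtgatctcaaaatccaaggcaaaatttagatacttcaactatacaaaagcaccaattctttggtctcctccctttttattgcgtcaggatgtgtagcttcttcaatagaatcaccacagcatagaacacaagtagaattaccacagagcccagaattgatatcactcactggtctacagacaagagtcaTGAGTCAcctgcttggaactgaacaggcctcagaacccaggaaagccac
Klrk1, chr6:129623815-129624114, minus strand: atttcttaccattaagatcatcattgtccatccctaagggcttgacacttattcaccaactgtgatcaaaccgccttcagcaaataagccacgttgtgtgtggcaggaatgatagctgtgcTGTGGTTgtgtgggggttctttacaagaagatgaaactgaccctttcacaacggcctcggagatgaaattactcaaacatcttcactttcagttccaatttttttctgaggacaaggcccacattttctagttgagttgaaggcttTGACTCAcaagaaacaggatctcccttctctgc

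STAT letters stood in 1 of the 7 genes with a window, Klrb1f, at position -5 from the start, and in 8.3% of all 32851 windows. RUNX letters stood in Klrk1 at position -129 and in Klre1 at position -229, and in 5.27% of all windows. AP-1 letters stood in Klrc2 at position 1 of the window shown and in Klrk1 at position 17, and in 7.81% of all windows. T-box and ETS letters, held by 3.98% and 3.33% of all windows, matched none of the 10 windows. The 10 windows had a median GC content of 40.5% and a median of 2 CpG pairs, against 52.7% and 7 in all windows. These matches describe the letters only.

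Levels are given as RPKM, reads per kilobase of exon scaled to 1000000 counted reads, computed here from the counts. The length used was that of all annotated exons of a gene, from 1281 bases for Klrd1 to 7183 for Klrk1. Ranks and ratios between genes depend on it and are less certain than changes of 1 gene between groups. The libraries held 11862089 to 66468883 counted reads. Klrd1 had the highest median level of the 9 in each experiment, at 721 RPKM in gestation, 462 in the subsets, 1139 in the inhibitor culture and 2750.0 in the time course. Next came Klre1 in gestation (230.4) and the time course (836), Klrb1c in the subsets (234) and Klrk1 in the inhibitor culture (327). Klrc2 and Klrb1b had the lowest 2 medians in each, at 19.9 and 27.9 in gestation, 13.6 and 34.6 in the subsets, 19.2 and 56.2 in the inhibitor culture, and 54.5 and 31.6 in the time course. The time course was prepared with another kit than the other experiments, so levels are compared only within an experiment. The 2 virgin libraries differed by more than 2-fold for 6 of the 9 genes, as described below.

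The trNK identity of the libraries was checked on marker genes. Itga1, which encodes CD49a, ranged from 1.64 to 30.6 RPKM, Eomes from 7.19 to 67.8 and Ncr1 from 46.8 to 1030, and none of the 3 was at 0 in any library. Cxcr6, whose protein the trNK gate excludes, was at 0 in 3 of 34 libraries, with a median of 14.9 RPKM, and was at 4.50 to 33.8 in CB_low, 0 in CB_hi and 87.8 to 106 with IL-21 at 72 h. Single defining genes of other cells were low or absent, while some of the summed lists given below were not. Cd3e (T cells) was at 0 in 21 of 34 libraries and at most 6.42 RPKM. Cd79a (B cells) was at 0 in 19 and at most 14.7, and C1qa (macrophages) at 0 in 21 and at most 4.02. S100a8 (neutrophils) was at 0 in 29 and at most 0.956, and Col1a1 (stroma) at 0 in 23 and at most 17. Hba-a1 (red cells) was at 0 in 19 libraries and reached 493 RPKM in 1. Summed over each list, the 9 T cell genes gave 247 to 762 RPKM, the 6 B cell genes 46.4 to 21341 with a median of 153, the 7 macrophage genes 0 to 352, the 5 neutrophil or monocyte genes 0 to 239, the 6 stromal genes 0 to 51.9 and the 5 erythroid genes 0 to 844. The highest B cell sum came from CB_int replicate 2, and the highest erythroid sum from gd8.5 replicate 2.

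The subset experiment asked how trNK at one gestational day differ by CD55 and 4-1BB. From CB_low to CB_hi, 8 of the 9 receptor genes fell, and Klrb1b was the exception. The 2 NKG2 chain genes fell furthest, with Klrc2 17.5-fold and Klrc1 13.6-fold lower in mean RPKM, while their partner Klrd1 (CD94) fell least of the 8, 3.18-fold. NKG2D, the KLRE1 and KLRI2 pair and 2 of the 3 NKR-P1 genes fell as well.

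Klrc1, the inhibitory NKG2A chain, was at 185 and 210.1 RPKM in the 2 CB_low libraries, 70.5 and 69.8 in CB_int, and 16.1 and 12.9 in CB_hi. Klrc2, the activating NKG2C chain, was at 42.4 and 47.3 RPKM in CB_low, 11.5 and 15.7 in CB_int, and 2.32 and 2.81 in CB_hi. Klrd1, their common CD94 partner, was at 721 and 834 RPKM in CB_low, 341 and 583 in CB_int, and 212 and 277 in CB_hi. For all 3 genes the groups did not overlap and stood in the same order, with CB_low highest and CB_hi lowest. Non-overlap of 2 against 2 libraries was common, since 14.9% of the 4683 genes tested showed this order over the 3 groups and 38.3% were lower in both CB_hi than in both CB_low libraries.

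Klrk1, which encodes NKG2D, was at 239.6 and 281 RPKM in CB_low, 89.5 and 118 in CB_int, and 36.6 and 54.7 in CB_hi. Klre1 was at 323 and 340.4 RPKM in CB_low, 162 and 216 in CB_int, and 89.8 and 114 in CB_hi. Its partner Klri2 was at 209.6 and 176 RPKM in CB_low, 68.9 and 86.3 in CB_int, and 29.6 and 31 in CB_hi. These 3 genes stood in the same order as the CD94 and NKG2 genes, as did 8 of the 9 in all, against the 14.9% of all genes.

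The NKR-P1 genes differed among themselves. Klrb1f was at 186 and 239 RPKM in CB_low, 87.9 and 59.9 in CB_int, and 29.7 and 13.8 in CB_hi. Klrb1c, the NK1.1 gene on which the cells were sorted, was at 288 and 367 RPKM in CB_low, 283 and 186 in CB_int, and 106 and 95.5 in CB_hi. Klrb1b, the inhibitory Clr-b receptor next to Klrb1c, was at 34.8 and 34.3 RPKM in CB_low, 49.1 and 30.1 in CB_int, and 41.9 and 27.2 in CB_hi. Klrb1f and Klrb1c did not overlap between CB_low and CB_hi, whereas the 2 CB_low values of Klrb1b lay between the CB_hi values.

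**Figure D1:**
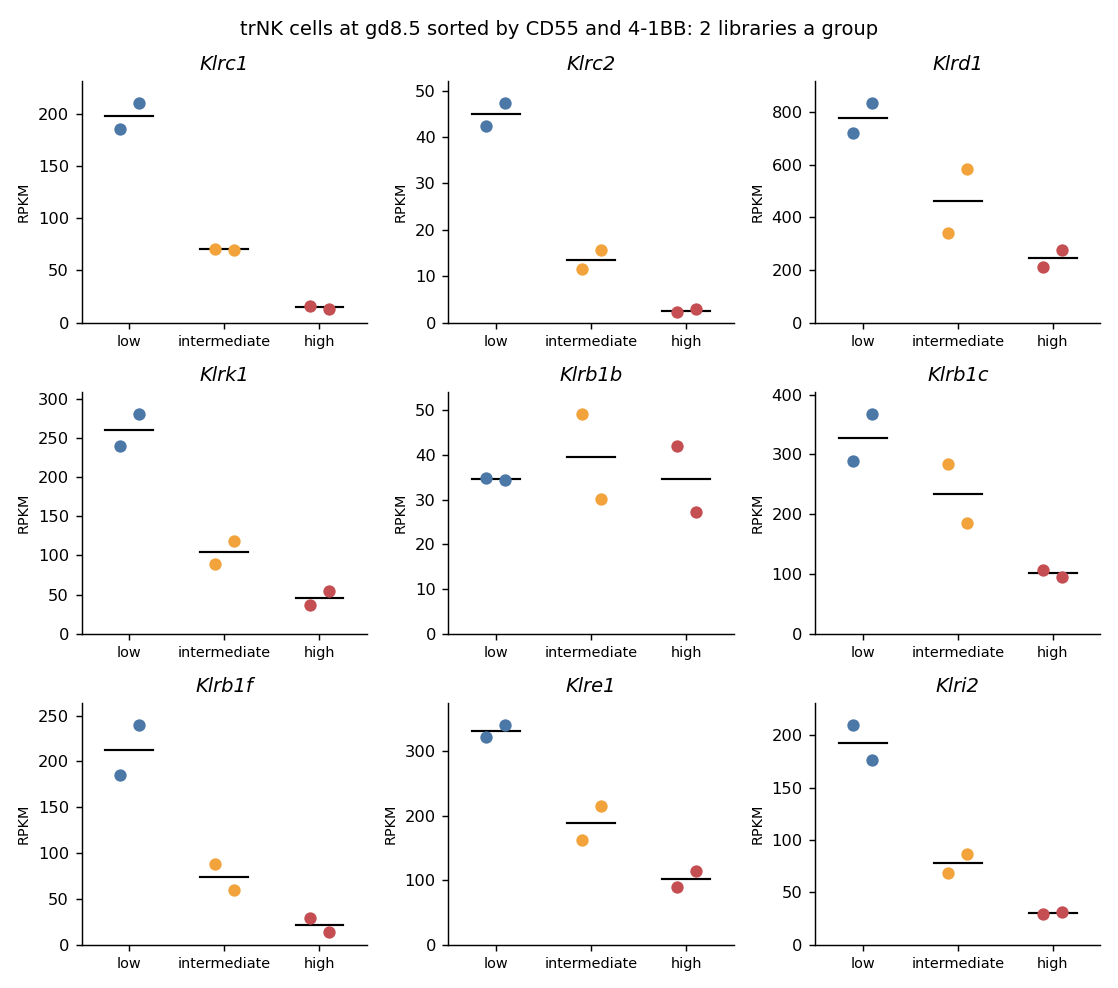
RPKM of the 9 receptor genes in gd8.5 trNK sorted as low, intermediate or high for CD55 and 4-1BB, with 1 panel a gene, points for single libraries (2 a group), bars for the group mean and a y axis that starts at 0. In 8 panels both points of the high group lie below both of the low group, as for 38.3% of all genes tested, and in the Klrb1b panel the low points (34.8 and 34.3 RPKM) lie between the high points (41.9 and 27.2).

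Differences were tested by edgeR (quasi-likelihood). P-values were adjusted by Benjamini-Hochberg over all genes kept, and calls needed an adjusted p below 0.05 and a change above 2-fold. Fold changes from this fit are on the log2 scale and use TMM library scaling. In CB_hi against CB_low, 8 of 9 receptor genes were called lower and none higher, where 21.2% of the 4683 genes tested were called in either direction and 13.1% lower. Their median log2 change was -2.51, against -0.01 for all genes tested. Klrc2 fell by 4.13 ± 0.24 (SE, adjusted p = 0.000571 in edgeR) and Klrc1 fell by 3.77 ± 0.19 (adjusted p = 0.000495). Klrb1f fell by 3.29 ± 0.40, Klri2 fell by 2.67 ± 0.19 and Klrk1 fell by 2.51 ± 0.26. The smallest of the 8 changes were those of Klre1 (-1.70 ± 0.21), Klrb1c (-1.70 ± 0.24) and Klrd1 (-1.67 ± 0.29, adjusted p = 0.00886 in edgeR). For Klrb1b the change was 0.00 ± 0.30, with a 95% confidence interval of -0.71 to 0.72. The 8 calls stood under every alternative tried and without any 1 of the libraries, where a group left with 1 library was assumed to vary like the other groups of the fit. They were not equally firm, and Klrd1 came nearest to losing its call, just inside the threshold in its weakest alternative.

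The intermediate subset lay between the other two for these 8 genes. In CB_int against CB_low, 2 of 9 genes were called lower, where 0.0641% of all genes tested were called lower and 0.32% in either direction. They were Klrc2, which fell by 1.71 ± 0.22 (adjusted p = 0.0381 in edgeR), and Klrc1, which fell by 1.48 ± 0.17 (adjusted p = 0.0307). Klri2 (-1.30 ± 0.18, adjusted p = 0.0546 in edgeR) and Klrk1 (-1.31 ± 0.25, adjusted p = 0.0973) missed the threshold. In CB_hi against CB_int, 3 of 9 were called lower, where 1.41% of all genes were called lower and 1.75% in either direction: Klrc2 fell by 2.42 ± 0.23, Klrc1 fell by 2.28 ± 0.18 and Klri2 fell by 1.37 ± 0.18 (adjusted p = 0.0266 in edgeR). Both counts are less firm than the first. CB_int against CB_low gave 0 calls without CB_low replicate 1, CB_low replicate 2, CB_int replicate 1 or CB_int replicate 2, and 5 with DESeq2, which called 3.99% of all genes. CB_hi against CB_int gave 0 without CB_hi replicate 2 and 6 with DESeq2, which called 6.96% of all genes. The summed macrophage genes were at 48.4 and 294 RPKM in CB_low, 262 and 352 in CB_int, and 18.2 and 14.9 in CB_hi. The summed T cell genes were at 563 and 604 RPKM in CB_low, 415 and 409 in CB_int, and 385 and 247 in CB_hi, and the stromal genes at 51.9 and 4.57, 4.77 and 2.11, and 0.513 and 0.68. The B cell sum was 21341 RPKM in CB_int replicate 2 and 172 to 317 in the other 5 libraries. The part of these markers in the differences was not tested.

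**Figure D2:**
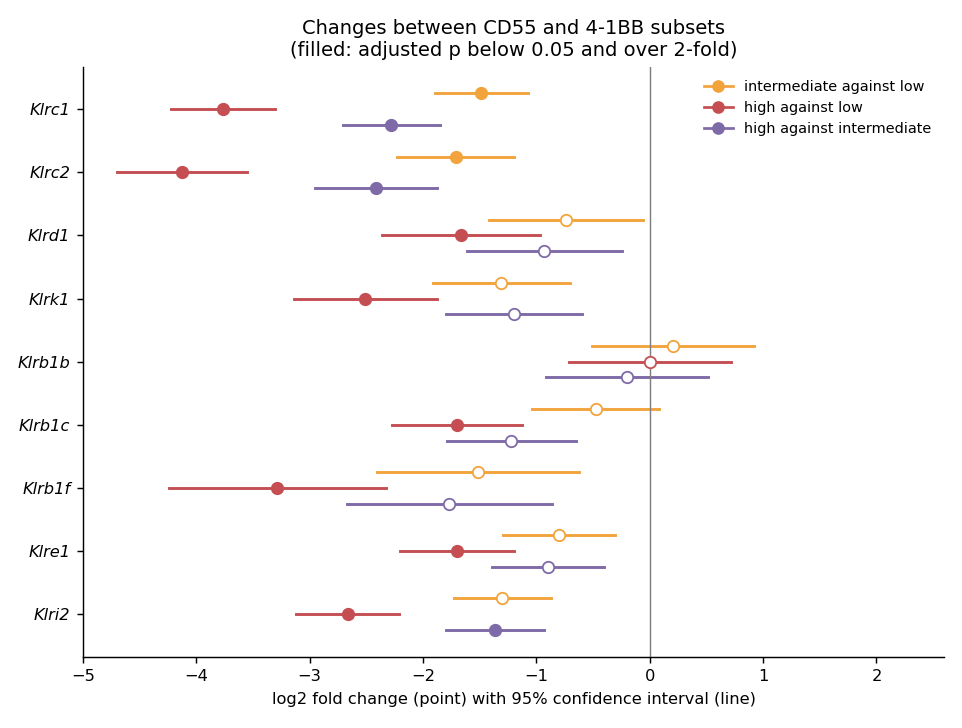
Log2 fold changes of the 9 receptor genes between the 3 subsets, with points for the edgeR estimate, lines for its 95% confidence interval, and filled points for genes called at an adjusted p below 0.05 and over 2-fold. The high against low estimates run from -4.13 (Klrc2) to 0.00 (Klrb1b), with 8 filled points, and the intermediate against low estimates lie nearer to 0.

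Within the CD94 and NKG2 group the proportions of the transcripts differed between subsets. The ratio of Klrd1 to Klrc1, in RPKM, was 3.89 and 3.97 in CB_low, 4.84 and 8.35 in CB_int, and 13.2 and 21.5 in CB_hi. CB_hi thus held more CD94 transcript for each NKG2A transcript, with no overlap between groups. The ratio of Klrc1 to Klrc2, which sets the inhibitory against the activating chain, stayed between 4.37 and 6.94 over the 6 libraries. The ratio of Klrb1c to Klrb1b was 8.29 and 10.7 in CB_low and 2.54 and 3.51 in CB_hi. These ratios are descriptions and were not tested.

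Through gestation, the question was how trNK change from the virgin uterus to decidualization. By edgeR, Klrb1f was called lower at gd6.5 and no other receptor gene was called in any of the 3 comparisons, and the counts differed between tools. The 2 virgin libraries differed. In virgin replicates 1 and 2, Tnfrsf9, which encodes 4-1BB, was at 123 and 751 RPKM, against 626 to 1137 at gd6.5 and 709 to 755 at gd8.5. Cd55 was at 26.2 and 109.6 RPKM, the inhibitory receptor gene Klrg1 at 284 and 910.1, and the 6 summed trNK markers at 4732 and 10510. Virgin replicate 2 lay within the range of the 4 libraries of pregnancy for Tnfrsf9 and above all 4 for Cd55, Klrg1 and the sum, and the part of this gap in the receptor values was not tested. Klrb1f was at 375 and 109 RPKM in the virgin libraries, 38.1 and 54.8 at gd6.5, then 67.5 and 83.9 at gd8.5. Klrc1 was at 575 and 75.4 RPKM in the virgin libraries, 48.4 and 59.4 at gd6.5, then 52.9 and 57.9 at gd8.5. Both genes were highest in virgin replicate 1, and both virgin values lay above every value of pregnancy, as for 11% of all genes tested.

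Klrc2, Klrk1 and Klri2 also differed widely inside the virgin group. Klrc2 was at 51.9 and 15 RPKM in the virgin libraries, 11 and 23.9 at gd6.5, then 19.8 and 20 at gd8.5. Klrk1 was at 362 and 91.9 RPKM in the virgin libraries, 119.7 and 154 at gd6.5, then 165 and 164 at gd8.5. Klri2 was at 258 and 71.5 RPKM in the virgin libraries, 69.2 and 70.6 at gd6.5, then 105 and 83 at gd8.5. In each of the 3 genes virgin replicate 2 lay near or below the values of pregnancy, which virgin replicate 1 exceeded.

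Klrd1 was at 843 and 528 RPKM in the virgin libraries, 446 and 650.5 at gd6.5, then 853 and 792 at gd8.5. Klre1 was at 332 and 214 RPKM in the virgin libraries, 145 and 219.5 at gd6.5, then 241 and 276 at gd8.5. Klrb1c was at 169 and 199 RPKM in the virgin libraries, 112 and 168 at gd6.5, then 189 and 174 at gd8.5. The virgin values of these 3 genes were within 2-fold of each other. Klrb1b ran the other way, at 10.9 RPKM in the first virgin library and 47.9 in the second, with 22.8 and 21.6 at gd6.5, then 33 and 39.6 at gd8.5.

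**Figure D3:**
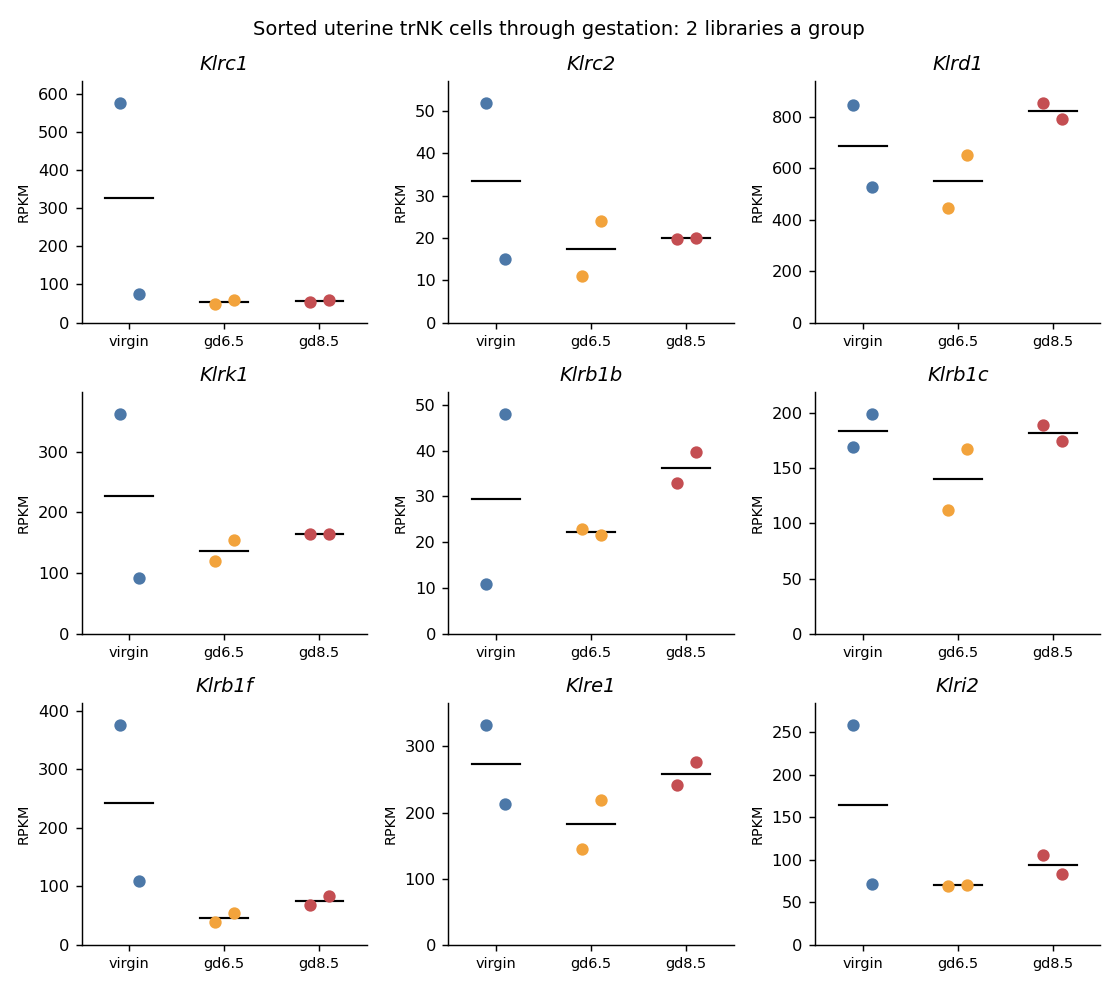
RPKM of the 9 receptor genes in sorted trNK of virgin mice and at gd6.5 and gd8.5, with 1 panel a gene, points for single libraries (2 a group), bars for the group mean and a y axis that starts at 0. Virgin replicate 1 stands far above the rest for Klrc1 (575 RPKM against 75.4 in replicate 2), Klrb1f, Klrk1 and Klri2 and below the rest for Klrb1b (10.9 RPKM).

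In gd6.5 against virgin, 1 of 9 genes was called lower, where 3% of 4504 genes tested were called lower and 6.17% in either direction. DESeq2 called 3 of the 9 and 10.3% of all genes, limma-voom 0 of the 9 and 7.93% of all genes, and edgeR 0 of the 9 with the replicate number as a block or with filterByExpr. An unadjusted p below 0.05 was found for 3 of the 9, against 32.7% of all genes. Klrb1f fell by 2.47 ± 0.56 on the log2 scale (adjusted p = 0.046 in edgeR). Klrc1 had a larger estimate with a larger error, -2.68 ± 0.83 (adjusted p = 0.0844 in edgeR). All 9 estimates were below 0, with a median of -0.82 against -0.02 for all genes tested. In gd8.5 against virgin none was called by edgeR, where 0.422% of all genes were called, and DESeq2 called 1 of the 9 and 3.64% of all genes, limma-voom 0 of the 9 and 0.555% of all genes. An unadjusted p below 0.05 was found for 2 of the 9, against 14.2% of all genes. Klrc1 was at -2.62 ± 0.83 and Klrb1f at -1.74 ± 0.54 there. In gd8.5 against gd6.5 none was called by edgeR, DESeq2 or limma-voom, where edgeR called 0% of all genes. None had an unadjusted p below 0.05 in edgeR (23.8% of all genes had). The counts rest on single libraries. In gd6.5 against virgin they were 2 without virgin replicate 1, where 10.1% of all genes were called, 5 without virgin replicate 2 (17.4% of all genes) and 0 without gd6.5 replicate 1 or gd6.5 replicate 2. In gd8.5 against virgin the count was 6 without virgin replicate 2, where 10.7% of all genes were called. The group left with 1 library was assumed to vary like the others.

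The time course asked how IL-21 acts on cultured gd6.5 trNK. With IL-21, Klrb1c fell within 6 h and remained lower at 24 h, and the difference was smaller at 72 h. Klrb1f and Klrc2 had lower values with IL-21 at 6 and 24 h, and Klrc1 passed the test at none of the times. Without IL-21, Klrd1 was called higher at 72 h than at 24 h.

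Klrb1c was at 279 and 286 RPKM at 0 h without IL-21 and 267 and 310.1 in the 0 h libraries with the IL-21 label. At 6 h it was at 319.5 and 337 RPKM without IL-21 and 115 and 117 with it. At 24 h the values were 454 and 429 against 199 and 185, and at 72 h 577 and 519 against 406 and 366. The groups did not overlap at 6, 24 or 72 h, while at 0 h they did. With IL-21 below control at all 3 times and no overlap, 5 of the 9 genes and 4.65% of all genes tested showed this pattern.

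Klrb1f was at 276 and 285 RPKM at 6 h without IL-21 and 168 and 148 with it, at 386 and 369 against 282 and 260.3 at 24 h, and at 319 and 419 against 490.5 and 445 at 72 h. IL-21 libraries were thus lower at 6 and 24 h and higher at 72 h. Klrc2 was at 57.3 and 63.7 RPKM at 6 h without IL-21 and 37.6 and 40.5 with it, at 84.4 and 67.2 against 47.1 and 43.1 at 24 h, and at 81.8 and 77.1 against 66.6 and 63.5 at 72 h. Klrc1 was at 231 and 232 RPKM at 6 h without IL-21 and 273 and 306 with it, at 308 and 255 against 277 and 321 at 24 h, and at 285 and 328 against 302 and 231 at 72 h. The ratio of Klrc1 to Klrc2 was 4.04 and 3.64 without IL-21 and 7.27 and 7.56 with it at 6 h, and 3.65 and 3.79 against 5.88 and 7.45 at 24 h. These ratios were not tested.

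Klrd1 was at 2126 and 2851 RPKM at 6 h without IL-21 and 1561 and 1571 with it, at 3314 and 2993 against 2433 and 2719 at 24 h, and at 4566 and 5675 against 2781 and 4421 at 72 h. Klre1 was at 755 and 960.3 RPKM at 6 h without IL-21 and 570.1 and 563 with it, at 1041 and 956 against 629 and 699.6 at 24 h, and at 1182 and 1592 against 607 and 885 at 72 h. Both genes were lower in both IL-21 libraries at each of these times, without passing the test. Klrb1b was also lower in both IL-21 libraries at 6 h, at 26.5 and 26.2 RPKM without IL-21 and 14.6 and 17.8 with it. Klri2 was lower by less, at 316 and 317 against 310.2 and 288, and Klrk1 overlapped, at 295 and 328 against 320.5 and 281. In all, 7 of the 9 genes and 28.7% of all genes tested were lower in both IL-21 libraries at 6 h. At 24 h Klrk1, Klri2 and Klrb1b were all lower in both IL-21 libraries, as were 8 of the 9 genes and 27.4% of all genes tested. Klrk1 was then at 424 and 393 RPKM without IL-21 and 287 and 281 with it, Klri2 at 515 and 411 against 312 and 310.2, and Klrb1b at 50.2 and 42 against 28.7 and 23.7. At 72 h the group means without and with IL-21 were 520 and 431 RPKM for Klrk1, 689 and 541 for Klri2, and 66.5 and 46.5 for Klrb1b.

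**Figure D4:**
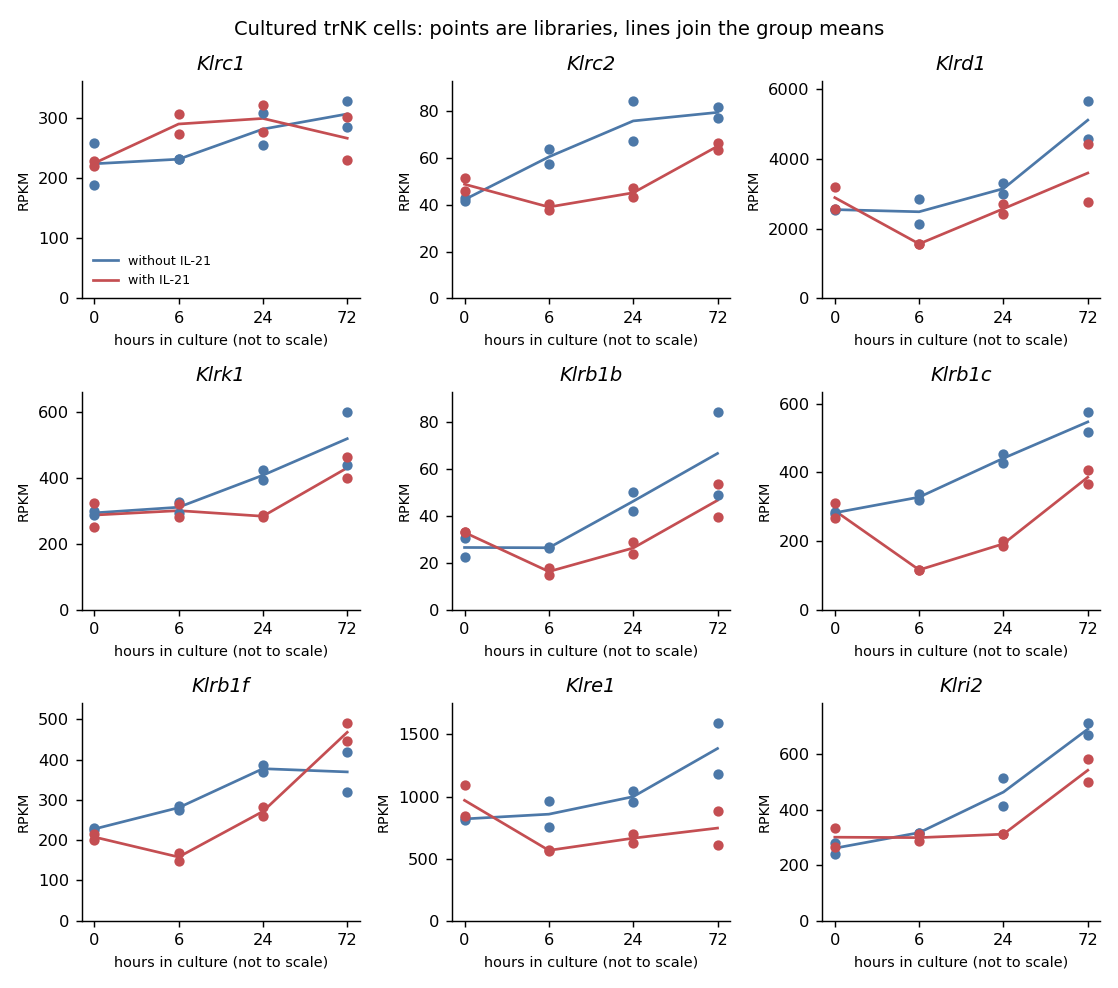
RPKM of the 9 receptor genes in cultured trNK at 0, 6, 24 and 72 h without (blue) and with (red) IL-21, with points for single libraries (2 a group), lines joining group means, evenly spaced time points and a y axis that starts at 0. In the Klrb1c panel the IL-21 points lie at 115 and 117 RPKM at 6 h against 319.5 and 337 without IL-21, and in the Klrb1f panel the lines cross between 24 and 72 h.

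At 0 h none of the 9 genes was called between the arms by edgeR, DESeq2 or limma-voom, where edgeR called 0% of 3503 genes tested. None had an unadjusted p below 0.05 in edgeR (3.14% of all genes had). At 6 h 1 of 9 was called lower, where 1.37% of all genes were called lower and 1.97% in either direction: Klrb1c fell by 1.54 ± 0.15 (adjusted p = 0.00155 in edgeR). Klrb1f was at -0.86 ± 0.20 (adjusted p = 0.0552 in edgeR) and Klrc2 at -0.67 ± 0.18 (adjusted p = 0.101), and the median of the 9 was -0.67 against -0.02 for all genes tested. At 24 h 1 of 9 was again called lower, where 1.31% of all genes were called lower and 1.66% in either direction, and 6 of 9 had an unadjusted p below 0.05, against 15% of all genes: Klrb1c fell by 1.30 ± 0.15 (adjusted p = 0.00384 in edgeR), and Klrc2 fell by 0.85 ± 0.18 (adjusted p = 0.0371), under 2-fold. At 72 h none was called by edgeR, DESeq2 or limma-voom, where edgeR called 8.08% of all genes. An unadjusted p below 0.05 in edgeR was found for 3 of the 9, against 25.1% of all genes. Klrb1c fell by 0.57 ± 0.14 there (adjusted p = 0.033 in edgeR), under 2-fold, and Klre1 was at -0.93 ± 0.32 (adjusted p = 0.0956). The call at 6 h stood without any 1 of the libraries, and that at 24 h was lost without control replicate 2, IL-21 replicate 1 or IL-21 replicate 2 of that time. At 72 h the count was 1 without control replicate 1 and 2 without IL-21 replicate 2, where 26.1% and 15.1% of all genes were called.

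The change of the IL-21 effect from 6 to 72 h was tested as an interaction in the same fit. None of the 9 genes was called by edgeR at 2-fold, where 4.17% of all genes were called, and 1 was called by each of DESeq2 and limma-voom, which called 9.85% and 5.65% of all genes. An unadjusted p below 0.05 was found for 2 of the 9, against 18.5% of all genes. For Klrb1c the effect rose by 0.97 ± 0.20 (adjusted p = 0.0214 in edgeR), and for Klrb1f the difference was 1.12 ± 0.29 (adjusted p = 0.0521). The median over all genes tested was 0.14, so both lay above the general shift. For Klrc1 the difference was -0.59 ± 0.29. The count was 1 without control replicate 1 of 6 h (2.28% of all genes called) or without control replicate 1 or 2 of 72 h (21.7% and 8.91%), and 2 without IL-21 replicate 1 of 72 h (6.94%).

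Culture itself, without IL-21, gave few calls before 24 h. In 6 h against 0 h none of the 9 genes was called by edgeR, DESeq2 or limma-voom, where edgeR called 0% of all genes. In that comparison 1 had an unadjusted p below 0.05 in edgeR, against 3.03% of all genes. In 24 h against 6 h none was called by any of the 3 tools, where edgeR called 0.0856% of all genes. There 5 had an unadjusted p below 0.05 in edgeR, against 5.62% of all genes. In 72 h against 24 h 1 of 9 was called higher, where 4.97% of all genes were called higher and 14.8% in either direction. Klrd1 rose by 1.06 ± 0.33 (adjusted p = 0.0492 in edgeR). Klri2 (0.92 ± 0.24), Klrb1b (0.85 ± 0.26) and Klrb1c (0.66 ± 0.14, adjusted p = 0.0116 in edgeR) also rose, under 2-fold, so that 4 of 9 passed the adjusted p alone, as 6.39% of all genes did in this direction. The Klrd1 call was lost with the replicate number as a block, with filterByExpr, with no filter on low values (a change under 2-fold), with only the libraries compared, without either 24 h control library and without 72 h control replicate 2, and the count was 3 without 72 h control replicate 1, where 32.5% of all genes were called. Scaling mattered here: for Klrb1f the mean RPKM was 377 at 24 h and 369 at 72 h, while the TMM-scaled change was 0.34 ± 0.20.

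The inhibitor culture asked whether the IL-21 effect passes through STAT3. After 3 days, Klrb1c and Klrb1f were lower with IL-21 and Stattic together than in control cells, and no receptor gene was called between IL-21 alone and IL-21 with Stattic. Klrb1c was at 552 and 509 RPKM in control culture, 134 and 154 with IL-21, and 118 and 121 with IL-21 and Stattic. Klrb1f was at 196 and 233 RPKM in control culture, 103 and 87.6 with IL-21, and 66.5 and 55.4 with IL-21 and Stattic. For both genes all 4 libraries with IL-21 lay below both control libraries, as they did for 4 of the 9 genes and 20.6% of all genes tested. These cells were sorted as live NK1.1+ after culture, that is on the Klrb1c product. At 72 h of the time course, the same culture time, mean Klrb1f was instead higher with IL-21, at 468 RPKM against 369. Mean Klrb1c was lower with IL-21 there too, at 386 RPKM against 548.

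Klrc2 was at 41.9 and 43.6 RPKM in control culture, 15 and 16.8 with IL-21, and 14.3 and 21.5 with IL-21 and Stattic. Klrc1 was at 159 and 109.7 RPKM in control culture, 136 and 138 with IL-21, and 39.7 and 106 with IL-21 and Stattic. The ratio of Klrc1 to Klrc2 was 9.06 and 8.24 with IL-21, 3.80 and 2.51 in control, and 2.77 and 4.95 with Stattic added. The ratio with IL-21 overlapped neither of the other groups, which is a description without a test. In the time course at 72 h, the same culture time, the ratios overlapped, at 3.48 and 4.26 without IL-21 and 4.54 and 3.63 with it.

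Klre1 was at 404 and 322 RPKM in control culture, 233 and 166 with IL-21, and 287 and 366 with IL-21 and Stattic. Klrb1b was at 56.2 and 62.9 RPKM in control culture, 39.7 and 37.5 with IL-21, and 56.2 and 80 with IL-21 and Stattic. Both genes were lowest with IL-21 alone. Klrd1 was at 1530.2 and 1172 RPKM in control culture, 1429 and 973 with IL-21, and 723 and 1107 with IL-21 and Stattic. Klrk1 ranged from 245 to 342 RPKM and Klri2 from 126 to 273 over the 6 libraries.

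In IL-21 against control none of the 9 genes was called by edgeR, where 0.289% of 4158 genes tested were called, and DESeq2 called 2 of the 9 and 3.9% of all genes, limma-voom 0 of the 9 and 0.433% of all genes. An unadjusted p below 0.05 was found for 3 of the 9, against 9.19% of all genes. Klrb1c was at -1.70 ± 0.27 (adjusted p = 0.0556 in edgeR) and Klrc2 at -1.24 ± 0.33 (adjusted p = 0.193). In IL-21 with Stattic against IL-21 alone none was called by edgeR, DESeq2 or limma-voom, where edgeR called 2.96% of all genes. There 2 had an unadjusted p below 0.05 in edgeR, against 19.8% of all genes. Those 2 were Klrb1b (0.92 ± 0.33, adjusted p = 0.177 in edgeR) and Klre1 (0.80 ± 0.33, adjusted p = 0.233), named here after their values were seen. For Klrb1c this difference was -0.16, with a 95% confidence interval of -0.77 to 0.44. In IL-21 with Stattic against control, 2 of 9 were called lower, where 1.8% of all genes were called lower and 4.74% in either direction. Klrb1c fell by 1.86 ± 0.27 (adjusted p = 0.0117 in edgeR) and Klrb1f fell by 1.53 ± 0.31 (adjusted p = 0.0343). Both calls were lost with the replicate number as a block, with filterByExpr, and without control replicate 1, control replicate 2, or replicate 1 or replicate 2 of the Stattic group.

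A list of 28 other genes of these pathways, receptors of the same gene complex, adaptors and kinases, phosphatases and ligands, was followed beside the 9. In CB_hi against CB_low, 15 of the 28 were tested, 8 were called lower and 1 higher, where 13.1% of all genes were called lower and 21.2% in either direction. The lower receptors were Klrc3 (-3.65 ± 0.48), which encodes the NKG2E chain, and Klrb1a (-3.07 ± 0.54), which encodes NKR-P1A. Hcst, which encodes the DAP10 adaptor of NKG2D, fell by 1.92 ± 0.27, from 454 and 448 RPKM in CB_low to 142 and 96.7 in CB_hi. The kinase gene Lck fell by 2.16 ± 0.22, and the phosphatase genes Ptpn6 (SHP-1) and Inpp5d (SHIP-1) fell by 1.19 ± 0.19 and by 1.73 ± 0.15. The ligand genes H2-T23, which encodes Qa-1, and Clec2i, which encodes Clr-g, were at -1.32 ± 0.29 and -1.43 ± 0.25. Klrg1, an inhibitory receptor for cadherins, rose by 1.92 ± 0.17 (adjusted p = 0.00176 in edgeR), from 185 and 225 RPKM in CB_low to 813 and 739 in CB_hi.

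Fewer of the list were called elsewhere. None of the 15 tested was called in CB_int against CB_low by edgeR, with 9 at an unadjusted p below 0.05 (20.1% of all genes), and Lck (-1.62 ± 0.22) and Inpp5d (-1.08 ± 0.15) were called lower in CB_hi against CB_int, where 1.41% of all genes were. Hcst was lower at gd6.5 than in virgin libraries (-1.37 ± 0.28, adjusted p = 0.0366 in edgeR), where 6.17% of all genes were called, and no other gene of the list was called between gestation groups. In the time course 14 of the 28 were tested, beside shares of all genes called of 1.97% at 6 h, 1.66% at 24 h, 8.08% at 72 h and 14.8% from 24 to 72 h. With IL-21 at 6 h Klrb1 (-2.20 ± 0.40) and Klrb1a (-2.10 ± 0.33) were called lower, at 24 h Klrb1 (-2.79 ± 0.41) and Clec2i (-1.17 ± 0.22), and at 72 h Klrb1 (-1.92 ± 0.40), with Klrg1 (1.72 ± 0.36) and H2-T23 (1.71 ± 0.35) higher. In control culture Klrb1 stood at 18.6 and 12.1 RPKM at 6 h and 60.5 and 90.7 at 72 h, and with IL-21 at 3.49 and 3.30 and at 24 and 19. From 24 to 72 h without IL-21, Hcst rose by 1.17 ± 0.36, Tyrobp, the DAP12 adaptor gene, rose by 1.30 ± 0.37 and Klrb1 rose by 1.28 ± 0.39, and Klrg1 fell by 1.34 ± 0.35. In the inhibitor culture 16 were tested, and Klrb1 alone was called, lower with IL-21 and Stattic than in control (-2.92 ± 0.51), where 4.74% of all genes were called.

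Across the 34 libraries, after the mean of each experiment was removed, Klrb1b was mostly less correlated with the other 8 genes than these were with each other. The 28 pairs without Klrb1b had a Pearson r of 0.40 to 0.931, with a median of 0.791, and the 8 pairs with Klrb1b had -0.201 to 0.546, with a median of 0.159. The ranges overlap, since Klrb1b with its neighbour Klrb1c (0.546) lay above Klrc1 with Klrb1c (0.40) and Klrk1 with Klrb1c (0.534). Genes outside the 9 with the most similar pattern were found among 3775 genes. For Klrd1 they were Klra14-ps (r = 0.89), Klra8 (0.87) and Klra4 (0.85), and for Klrk1 Klra4 (0.85), Klrc3 (0.84) and Klra13-ps (0.84). For Klrc1 they were Tcf7 (0.83), Tespa1 (0.82) and Stat4 (0.80), and for Klre1 Klra4 (0.85), Gmfg (0.81) and Trdv2-2 (0.80). The points share groups, libraries and depth, so these are descriptions. The Klra genes are close copies of each other, and reads could be split between them.

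The single-cell matrix pooled CD45+NK1.1+NKp46+ cells of virgin and gd8.5 uteri, with no map from cells to samples, so it is 1 sample and no test was made. It held 15175 cells, of which 8907 were kept, in 16 clusters. Its 15175 cell numbers held 0 duplicates, no doublet caller was run and no doublets were removed. Clusters were found without the Klr genes and named from marker genes: 7 were trNK-like, among them 4 of virgin type (2740 cells in all, with Tcf7, Cd27 and Il21r), 1 dividing (485 cells) and 1 of terminal type (1068 cells, with 9 of 10 terminal markers such as Gzmd, Spp1 and Scin), and 1 was like conventional NK cells (cNK-like, 1028 cells), although the mast cell protease genes Cma1 and Mcpt4 led it. Innate lymphoid cells of type 1 (ILC1) also carry NK1.1 and NKp46, so the sort could hold them. No cluster was named as ILC1. Whether the trNK-like clusters, those of virgin type among them, included ILC1 was not tested. Levels are summed molecule counts (UMIs) scaled to 1000000 per class (CPM), and intervals cover counting error only. B-like cells (304), which should lack these receptors, served as a reference for background. They came from the same NK1.1+NKp46+ sort with no doublets removed, and some terminal-type levels lay far below theirs. Their level is thus no floor, and it cannot show whether a terminal-type level is background.

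All 9 genes were higher in virgin-type than in terminal-type cells. Klrb1f was at 206 CPM against 3.64, a 56.5-fold difference (95% interval 36.8 to 91.6), Klrc2 at 153 against 3.47, 44.3-fold (28.5 to 72.7), and Klrc1 at 178 against 8.84, 20.1-fold (15.2 to 27.2). Klrk1 was 12.3-fold (10.9 to 13.8), Klri2 7.97-fold (7.02 to 9.08), Klrb1c 5.39-fold (4.97 to 5.85), Klre1 5.27-fold (4.95 to 5.62) and Klrd1 4.46-fold (4.20 to 4.75) higher. Klrb1b had the smallest difference, at 201 CPM against 75.1, 2.67-fold (2.40 to 2.98). Klrb1b was lower in the terminal-type cells, whereas its CB_hi and CB_low values overlapped in the sorted subsets.

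Depth limits these folds, and background may, which the B-like cells cannot settle. In B-like cells Klrc1 was at 44.5 CPM, Klrc2 at 41.3, Klrk1 at 133, Klrb1c at 129 and Klrb1f at 38.1, and the terminal-type levels of these 5 genes (8.84, 3.47, 54.6, 119 and 3.64 CPM) lay below them. For Klrb1c the intervals overlapped (111 to 129 CPM in terminal-type and 102 to 160 in B-like cells), and 37.4% of terminal-type against 12.5% of B-like cells held a UMI, or 10.5% against 7.61% when thinned to 1000 UMIs. The intervals also overlapped for Klri2 (40.3 to 51.5 CPM in terminal-type and 28.3 to 62.4 in B-like cells), Klre1 (186 to 209 and 145 to 212), Klrd1 (201 to 225 and 136 to 202) and Klrb1b (68.2 to 82.5 and 37.4 to 75.5). Overlap of 2 intervals is no test of a difference, and for Klrd1 it was slight. The thinned Klrd1 shares, given below, were 15.3% against 8.65%. With no upper limit on genes a cell, the terminal-type levels were 515 CPM for Klrd1, 488 for Klre1, 267 for Klrb1c, 144 for Klrk1, 134 for Klrb1b and 90.8 for Klri2. Klrb1f was then at 19.9 CPM, Klrc1 at 18.0 and Klrc2 at 9.58. B-like levels were not computed in that setting. Terminal-type cells were deeper, with a median of 5659 UMIs, against 1830 in B-like and 1727 in cNK-like cells. With each cell thinned to 1000 UMIs, Klrd1 was seen in 58% of virgin-type, 15.3% of terminal-type, 64.6% of cNK-like and 8.65% of B-like cells, and unthinned in 74.6%, 40.1%, 78.3% and 14.5%. All 9 differences kept their direction under 4 other cell filters or clusterings, but their size and order did not hold. With the limits set on UMIs per cell, as the methods state them, Klrb1f was 4.003-fold, Klrc2 6.96-fold, Klrc1 6.67-fold, Klrk1 4.13-fold, Klrd1 2.36-fold and Klrb1b 1.92-fold higher. With no upper limit on genes a cell, the folds were 9.03 for Klrb1f, 13.1 for Klrc2, 7.90 for Klrc1, 1.80 for Klrd1 and 1.24 for Klrb1b.

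Among all clusters, cNK-like cells had the highest level of 8 of the 9 genes, with Klre1 at 1524 CPM, Klrb1c at 1154, Klrd1 at 1067, Klrk1 at 986, Klri2 at 575, Klrc2 at 428, Klrc1 at 359 and Klrb1f at 273. For some the lead over the highest virgin-type cluster was small, with Klrk1 at 977 CPM there, Klrd1 at 1043, Klrc1 at 334 and Klrb1f at 241. The order for these genes is therefore not firm. Klrb1b was the exception. It was at 236 CPM in cNK-like cells and highest, at 478 CPM (396 to 572), in a virgin-type cluster of 103 cells whose leading genes, Cxcl10 and Ifit1 among them, respond to interferon. The other 3 virgin-type clusters had 148 to 201 CPM of Klrb1b. The dividing and the remaining trNK-like cluster (485 and 905 cells) lay between virgin and terminal type for all 9 genes, at 81.2 and 43.6 CPM for Klrc1 and 678 and 760.1 for Klrd1.

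**Figure D5:**
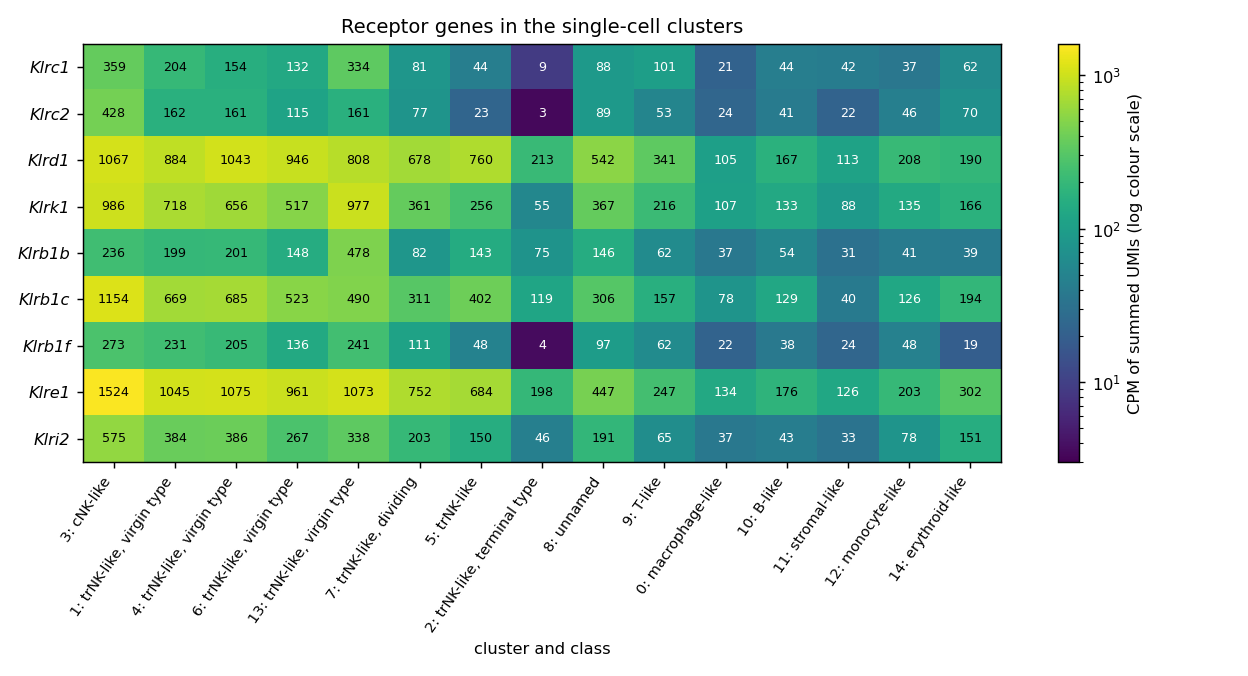
CPM of summed UMIs for the 9 receptor genes (rows) in 15 of the 16 single-cell clusters (columns, with cluster number and class, the smallest of 13 cells left out), on a log colour scale with the value printed in each cell. The terminal-type trNK-like column is the darkest of the trNK-like columns in every row, with Klrc2 at 3.47 and Klrb1f at 3.64 CPM. The cNK-like column is the brightest of all in each row but Klrb1b, in some by little (Klrk1 at 986 CPM against 977 in cluster 13).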

How the data were processed

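Uterine cells of C57BL/6 mice were profiled in 34 bulk RNA-seq libraries and 1 pooled single-cell matrix. The authors deposited whole-number read counts per gene for each bulk library, aligned with HISAT2 2.1.0 to mm10. Virgin replicate 1 was counted on a different gene list. Only the 54353 genes common to every file entered the analysis, and they held 99.9% or more of any library's reads. The submitters' processing notes name featureCounts of Subread for counting, and the study's methods name RSEM. The single-cell counts, also made by the authors, are molecule counts per gene and cell from the BD Rhapsody pipeline. ATAC-seq samples were not analysed here.

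The 9 receptor genes and all lists were chosen with earlier results of these data known. RPKM were computed from the counts and exon lengths. Counts were tested with edgeR 4.0.16 (TMM, quasi-likelihood, 1 fit over all libraries of an experiment, Benjamini-Hochberg over the genes kept). A gene was kept if both libraries of at least 1 group exceeded 10 RPKM, as in the study, which used limma. Genes were called at an adjusted p below 0.05 and over 2-fold. All 9 genes passed this filter in each experiment, which tested 4504 (gestation), 4683 (subset), 4158 (inhibitor) and 3503 (time course) genes. Alternatives were DESeq2 1.42.0, limma-voom 3.58.1, other filters and scaling, no fold threshold, only the libraries compared, a replicate block and leaving out each library. Named genes are the 9, the called genes of a list of 28 partners, and the 3 genes most similar to each of Klrd1, Klrk1, Klrc1 and Klre1. Replicate libraries differed beyond sampling noise in every group.

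Cells with more than 200 and fewer than 2500 genes and under 10% mitochondrial counts were kept (8907 of 15175) and clustered with scanpy 1.11.5 (resolution 0.8) without 27 Klr genes. The methods give these limits for molecules, which leave 4338 cells. Names were rebuilt here from markers, so shares may differ from the study's. Intervals are exact Poisson for counts and exact binomial for shares and cover counting error only.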

Additional observations from a re-analysis of the deposited data

Results flagged for a closer look

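For 3 of the 9 receptor and 14 partner genes tested, the IL-21 effect differed between 6 and 72 h of culture, tested as an interaction with edgeR and Benjamini-Hochberg adjustment over all genes, where the median over all genes was 0.14 on the log2 scale. Of all genes, 3.68% passed the adjusted p in this direction, and 4.17% were called in either direction at over 2-fold. For Klrb1c, the NK1.1 gene, the effect was -1.54 at 6 h, -1.30 at 24 h and -0.57 at 72 h, a change of 0.97 from 6 to 72 h (adjusted p = 0.0214 in edgeR). This is under 2-fold, it was called in 3 of 15 alternatives, and its adjusted p reached 0.221 among them. For Klrb1a, which encodes NKR-P1A, the effects were -2.10, -0.96 and 0.24, a change of 2.33 (adjusted p = 0.0127 in edgeR). For Klrg1, an inhibitory receptor, they were -0.33, 0.00 and 1.72, a change of 2.05 (adjusted p = 0.0415 in edgeR). Each effect rests on 2 libraries an arm. No group held the 4 or more libraries that a test for outlying libraries needs.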

How the results depend on the processing

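The 8 calls in CB_hi against CB_low and the 1 call with IL-21 at 6 h stood under every alternative run. Of 209 counts of called receptor genes, 152 stayed within 1.5 times the reported count, and 57 moved, 26 of them with a library left out. The 152 include counts that were 0 and stayed 0. Examples are gd8.5 against gd6.5, IL-21 at 0 h, 6 h against 0 h and 24 h against 6 h. The 152 is therefore no measure of how stable the calls were. With libraries left out, counts ranged from 0 to 5 for gd6.5 against virgin, 0 to 6 for gd8.5 against virgin, 0 to 0 for CB_int against CB_low, 0 to 3 for CB_hi against CB_int, 0 to 0 for Stattic with IL-21 against control, 0 to 1 for IL-21 at 24 h, 0 to 2 for IL-21 at 72 h, 0 to 3 for 72 h against 24 h, and 0 to 2 for the interaction. Klrc2 in gd6.5 against virgin ranged from -1.68 to 0.14, positive without virgin replicate 1.

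DESeq2 gave 3 for gd6.5 and 1 for gd8.5 against virgin, 5 for CB_int against CB_low, 6 for CB_hi against CB_int, 2 for IL-21 at 3 days and 1 for the interaction. Without a filter on low values the counts were 3, 2, 5, 6 and 1 for the first 5 of these, and 0 for 72 h against 24 h. Limma-voom gave 0 for gd6.5 against virgin and 1 for the interaction. With filterByExpr the count was 1 for CB_hi against CB_int, and 0 for gd6.5 against virgin, CB_int against CB_low, Stattic with IL-21 against control, IL-21 at 24 h and 72 h against 24 h. Fitting only the libraries compared gave 0 for gd6.5 against virgin, CB_int against CB_low and 72 h against 24 h. Without the fold threshold the counts were 2 for IL-21 at 24 h and 1 at 72 h, all lower. Of all genes, 1.43% and 2.06% passed in that direction. For 72 h against 24 h the count was 4 and for the interaction 1, all higher, against 6.39% and 3.68% of all genes. The cause of these shifts was not tested. Shares of all genes called are not given here for no filter, filterByExpr or only the libraries compared. Those counts alone therefore show no change particular to the receptor genes.

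Whether replicate numbers pair the libraries could not be settled with 2 libraries a group. Deviations of same-numbered libraries correlated at over 0.1 in 1 of 3 pairs of gestation groups, 2 of 3 of subset groups, 1 of 3 of inhibitor groups and 9 of 28 of time-course groups. The correlations ran from -0.008 to 0.387 in the subset experiment and from -0.431 to 0.540 in the inhibitor culture. With the replicate number as a block, the counts were 0 for gd6.5 against virgin, 3 for CB_int against CB_low and 5 for CB_hi against CB_int. They were 0 for Stattic with IL-21 against control and 0 for 72 h against 24 h. The share of all genes called with the block is not given here, so these counts cannot be read against it. TMM-scaled RPKM moved 51 of 153 group means by 1 SD or more, by a factor of at most 1.28.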
